A study of Mus musculus with 5 samples.

Results

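The genes described here are 42 genes of homologous recombination, the Fanconi anaemia pathway, damage signalling and the backup repair routes, chosen by name. All 42 were found among the 24319 usable gene rows of a bulk RNA-seq table that held 5 libraries of mouse mammary luminal cells, the epithelial cells that line the lumen of ducts and alveoli. Replicates 1, 2 and 3 carry the genotype label wild type and replicates 4 and 5 the label Brca1 knockout, so the groups held 3 and 2 libraries. Every library came from mammary tissue of mice of mixed strain, and the methods describe live cells sorted as CD24 high and CD29 low. Brca1 fl/fl was deleted in that mouse model by MMTV-Cre, which acts in mammary epithelium, and some of these mice also carried Trp53 fl/+. For cell preparation the methods name female mice 3 to 4 months old, either virgin or pregnant. The sources used here do not give the Trp53 genotype, the reproductive stage or the exact age behind any single library. They also do not say whether the sort removed cells in which Cre had not acted. The study describes its luminal libraries as Brca1-deficient, whereas 3 of the labels read wild type, so libraries are called by their label throughout. Nothing states that the libraries came from separate animals, and p-values therefore measure only the spread between these libraries, which may be technical.

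Homologous recombination repairs a broken chromosome by copying the sister chromatid, and it operates mainly in S and G2 phase. Nucleases first cut back the broken ends, the Brca1-Palb2-Brca2 chain then readies the exposed strand for exchange, and translocases and helicases complete and resolve the exchange. The Fanconi pathway unhooks crosslinked strands at stalled forks and hands the break to the same machinery, while Parp enzymes and DNA polymerase theta serve routes on which recombination-deficient cells lean. Brca1 is the tumour suppressor of this system, and its loss in the luminal layer of the mouse mammary gland gives rise to mammary tumours.

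The gene Brca1 (ENSMUSG00000017146) lies on the minus strand of chromosome 11 between 101488764 and 101551955 in mm10. Its level was 1.30, 1.32 and 0.234 FPKM in the wild type-labelled libraries and 1.20 and 1.34 FPKM in the Brca1 knockout-labelled libraries, always in the order of the replicate numbers. FPKM scale the fragments of a gene to its transcript length and to the total of the library. The lowest value thus lay in a library labelled wild type, replicate 3, and the other 4 libraries overlapped. Brca1 did not differ past the threshold between the labels (log2 difference 0.27, standard error 0.38, adjusted p = 0.94, limma). A level over the whole gene does not show whether some of its exons were deleted, so it checks neither label.

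Luminal identity was clear in all 5 libraries, where Krt8, the main luminal keratin, stood between 2240 and 3650 FPKM. The 5 libraries were otherwise not alike. All 7 mature luminal markers, among them Pgr, the progesterone receptor gene, were highest in replicate 3, where they summed to 470 FPKM against 18.8 to 44.6 FPKM elsewhere. The median of the 6 luminal progenitor markers lay between 6.01 and 6.50 in log2(FPKM + 1), but single markers moved in both directions. In replicate 3, 2 of them were lowest and 2 highest. Elf5 stood at 102 FPKM there against 244 to 338 FPKM elsewhere, and Aldh1a3 at 17.4 FPKM against 2.39 to 9.88 FPKM. Csn2, the beta-casein gene, stood at 10600 FPKM in replicate 3 and at 25300 to 32000 FPKM elsewhere, and 5 of the 6 milk genes were lowest in replicate 3. Lalba, the exception, was highest there, at 599 FPKM against 130 to 185 FPKM elsewhere. The 7 basal markers had a median of 0.84 in replicate 3 and of 1.82 to 2.92 elsewhere, but only 3 of the 7 were lowest there. Krt5, at 0.795 FPKM in replicate 3, was above replicates 4 and 5, at 0.423 and 0.232 FPKM. Krt17, at 6.08 FPKM, was also above them, at 4.45 and 5.11 FPKM. Immune markers, mostly Cd74 and Lyz2, summed to 26.5, 920 and 247 FPKM in replicates 1, 2 and 3 and to 27.4 and 470 FPKM in replicates 4 and 5. Fibroblast markers summed to 109 and 86.0 FPKM in replicates 2 and 3 and to no more than 12.6 FPKM in the rest. The 4 endothelial markers summed to no more than 7.20 FPKM in any library, and of the 4 adipocyte markers Adipoq, Plin1 and Lep were at or near 0 in all 5. Fabp4, the fourth, stood at 4.74, 36.7 and 17.9 FPKM in replicates 1, 2 and 3 and at 2.71 and 2.05 FPKM in replicates 4 and 5. The table gives no read totals. Spacing of low values put the depth at about 6280000, 12900000, 30400000, 6330000 and 21300000 fragments for replicates 1 to 5, and replicate 2 is uncertain because another choice of transcripts gave 25400000.

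The 42 genes were mostly at low levels. They spanned 0.0442 FPKM for Polq in replicate 3 to 26.1 FPKM for Parp1 in replicate 5. In 22 genes the level was at least 1 FPKM in every library, and in 6 genes (Bard1, Rad51c, Dna2, Fancb, Fancf and Polq) it was under 1 FPKM in every library. Their median was 1.70, 1.56 and 1.18 in log2(FPKM + 1) in replicates 1, 2 and 3, and 1.70 and 1.86 in replicates 4 and 5, a mean of 1.60 ± 0.26 (SD, n = 5). Replicate 3 was thus the lowest library, and the knockout-labelled libraries lay at or above the other libraries labelled wild type. In bulk libraries, fewer cells that express a gene and less RNA per cell cannot be told apart.

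**Figure D1:**
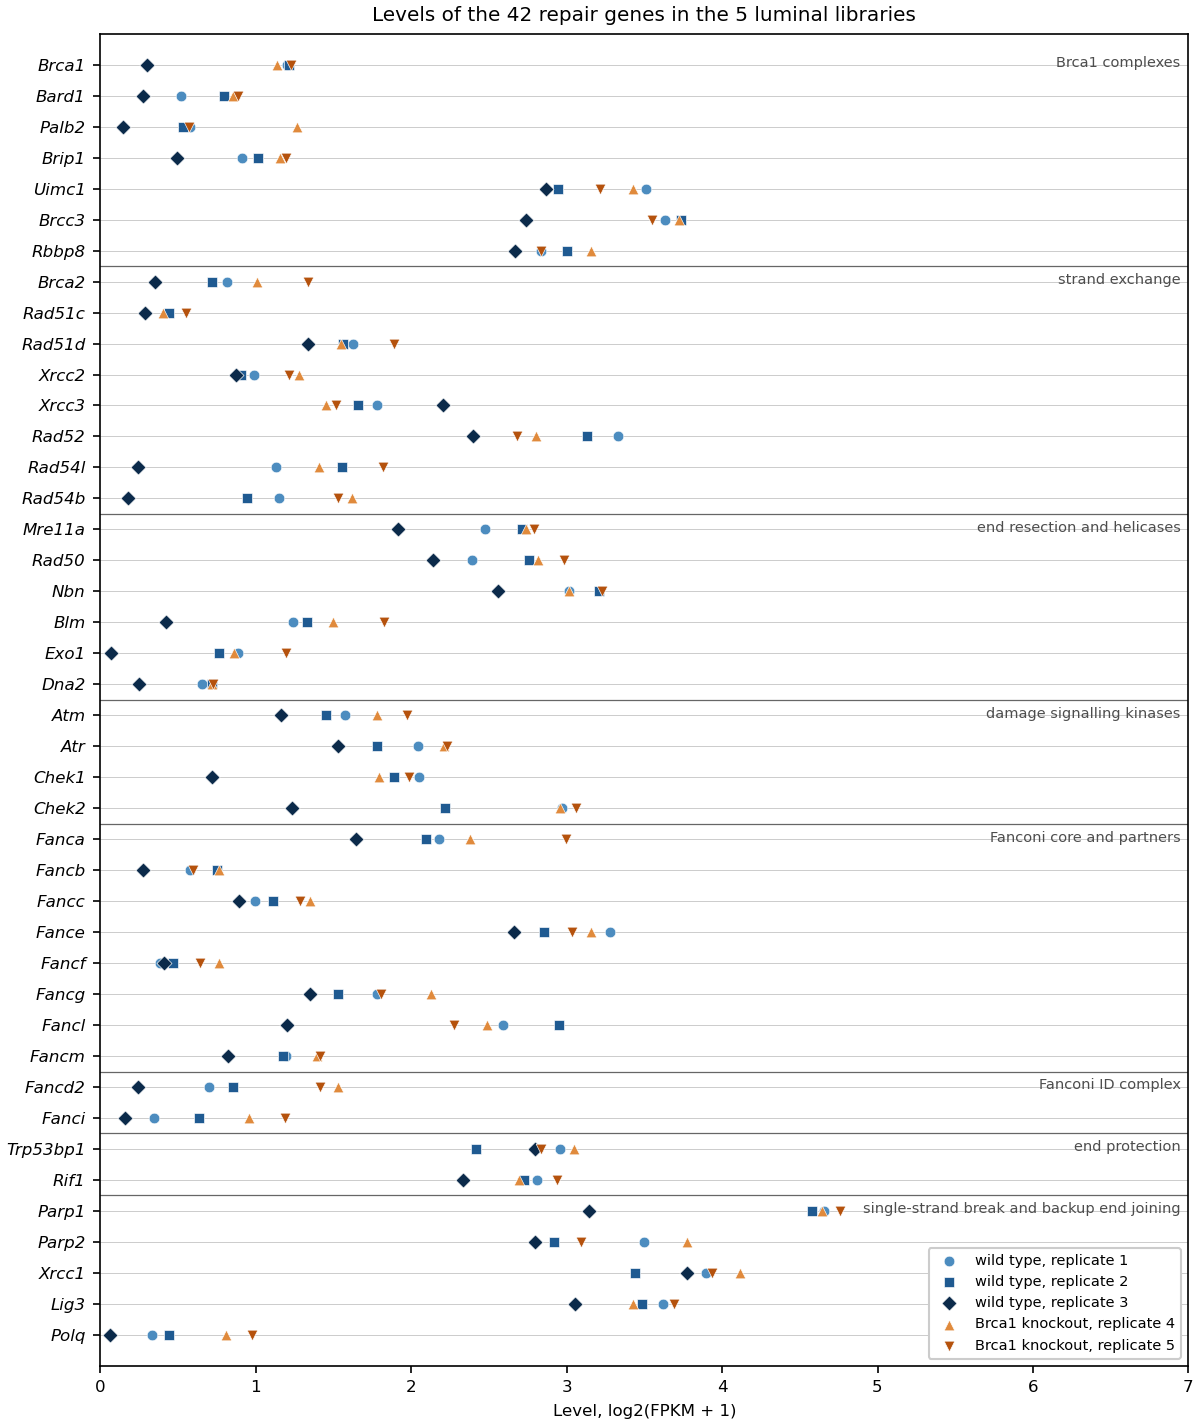
Each point is 1 of the 42 repair genes in 1 of the 5 libraries, as log2(FPKM + 1) on the horizontal axis, with genes grouped by role. Dark diamonds, replicate 3 labelled wild type, are the leftmost point in 37 of 42 rows, and Xrcc3 is the row where the diamond is rightmost.

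Promoters are shown here because many S phase genes are controlled through E2F sites close to their start, and because most of the 42 genes were lowest in the same library. RefSeq promoters (GRCm38.p6, 250 bases before to 50 bases after a start) matched 33 of the 42 genes. Exact matches to the E2F motifs TTTCCCGC, TTTGGCGC or TTTCGCGC were searched on both strands, and none of the 3 is contained in another. They occurred in 5 of 33 promoters, 15.2%, against 2.12% of all 27025 genes with a promoter and 4.21% of the 8604 such genes averaging 1 FPKM or more. The 33 genes were not filtered by level, so the second share is not matched to them, here or for the motifs below. Of the 5, Bard1, Brca2 and Rad51c averaged 0.608, 0.844 and 0.317 FPKM, under that level. Only Chek2 and Fancg, at 5.18 and 2.35 FPKM, were above it. All 5 held TTTCCCGC, and Rad51c also held TTTCGCGC at another of its starts. The windows round the matches read 5′ to 3′ along the gene's strand, with the match in capitals, and a match on the opposite strand appears as GCGGGAAA.
Bard1 (chr1:71103134-71103221, minus strand): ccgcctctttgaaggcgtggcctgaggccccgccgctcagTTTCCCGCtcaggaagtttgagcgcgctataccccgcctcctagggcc
Brca2 (chr5:150522413-150522500, plus strand): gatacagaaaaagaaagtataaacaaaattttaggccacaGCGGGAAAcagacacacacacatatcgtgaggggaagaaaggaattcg
Chek2 (chr5:110839791-110839878, plus strand): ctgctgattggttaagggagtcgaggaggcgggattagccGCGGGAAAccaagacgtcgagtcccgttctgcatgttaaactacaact
Fancg (chr4:43010306-43010393, minus strand): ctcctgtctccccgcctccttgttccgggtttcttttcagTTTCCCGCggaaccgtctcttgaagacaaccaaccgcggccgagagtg
Rad51c (chr11:87404912-87404999, minus strand): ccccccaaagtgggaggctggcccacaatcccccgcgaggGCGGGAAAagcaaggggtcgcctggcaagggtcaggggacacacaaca
Rad51c, other start (chr11:87404457-87404535, minus strand): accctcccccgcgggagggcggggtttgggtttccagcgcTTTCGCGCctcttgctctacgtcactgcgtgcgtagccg
The first base of the match lay at -209 in Bard1, -168 in Brca2, -152 in Chek2 and -52 in Fancg relative to the start, and at -5 and 12 at the 2 starts of Rad51c.

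CCAAT, the letters bound by NF-Y, was found in 18 of 33 promoters, 54.5%, against 41.1% of all genes and 42.7% of the genes at 1 FPKM or more. TTTGAA, the core of the cell cycle homology region, was found in 3 of 33, 9.09%, against 20.2% and 13.9%. Brca1 had no exact E2F match in its window and 1 CCAAT, shown in capitals at -86 in its whole 300-base promoter because Brca1 is the gene the labels name.
Brca1 (chr11:101551906-101552205, minus strand): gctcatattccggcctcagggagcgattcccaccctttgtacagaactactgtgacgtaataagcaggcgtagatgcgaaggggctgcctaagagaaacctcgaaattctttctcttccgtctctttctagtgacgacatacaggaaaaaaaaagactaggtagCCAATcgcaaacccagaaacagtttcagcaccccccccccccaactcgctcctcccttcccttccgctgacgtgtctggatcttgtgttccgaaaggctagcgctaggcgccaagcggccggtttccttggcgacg
A match is a description of letters, and the absence of a match says only that these letters are not in the window.

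The first comparison was among the 5 libraries taken as one set of luminal cells, as the study treats them. Replicate 3 held the lowest value for 37 of 42 genes, where 44.6% of the 14988 genes averaging 0.1 FPKM or more were lowest in that library. In 18 of 42 genes replicate 3 lay at least 2-fold below every other library, against a background of 7.77%. In no other library was any of the 42 genes 2-fold below the rest. Among the 31 genes averaging 1 FPKM or more, 28 were lowest in replicate 3 (background 51.8% of 11481 genes) and 9 at least 2-fold below (background 7.64%). The shares of members, 88.1% and 42.9%, were therefore above those of all genes in the same library.

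**Figure D2:**
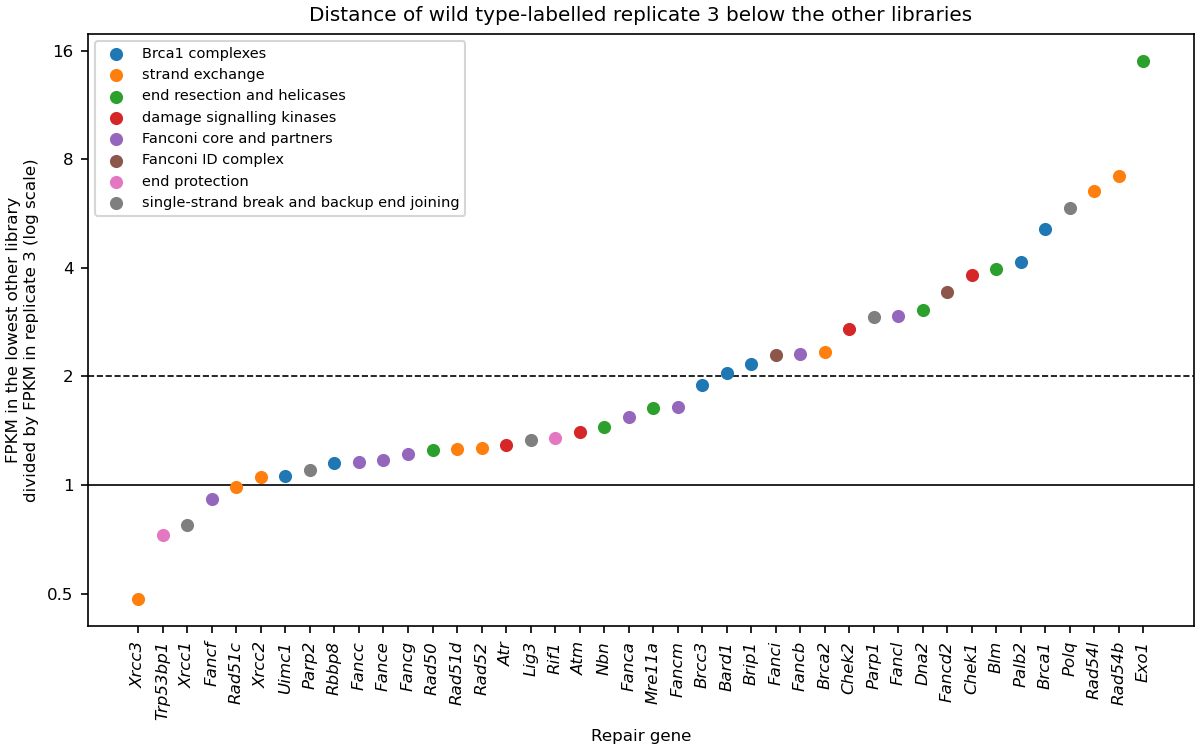
For each of the 42 genes, the FPKM of the lowest of the other 4 libraries is divided by the FPKM of replicate 3, on a log axis, coloured by role. Points over the dashed line are the 18 genes at least 2-fold lower in replicate 3 than anywhere else, up to 15.0-fold for Exo1, and points under the solid line are the 5 genes that were not lowest there.

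The single widest gap was in Exo1, and the other resection genes and helicases varied in theirs. Exo1, the exonuclease that extends resected ends (chromosome 1, 175880581 to 175913489), had 0.848, 0.695 and 0.0464 FPKM in replicates 1, 2 and 3 and at 0.812 and 1.29 FPKM in replicates 4 and 5. Replicate 3 was 15.0-fold below the lowest other library, and the labels overlapped. An estimated 11 fragments (95% exact Poisson interval 5.49 to 19.7) lay behind that value, where the level of the lowest other library would have given 165. These intervals cover counting error only. Blm, the helicase that dissolves joined recombination intermediates, was at 1.36, 1.51 and 0.343 FPKM against 1.82 and 2.55 FPKM, and Dna2, a nuclease and helicase, at 0.574, 0.645 and 0.188 FPKM against 0.644 and 0.651 FPKM. Mre11a, Rad50 and Nbn, the complex that first senses and trims the ends, were also lowest in replicate 3, by smaller ratios of 1.64, 1.25 and 1.45 to the lowest other library.

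Strand exchange genes split. Rad54l, a translocase of strand exchange, was at 1.19, 1.94 and 0.183 FPKM in replicates 1, 2 and 3 and at 1.65 and 2.52 FPKM in replicates 4 and 5. Rad54b, its relative, was at 1.22, 0.926 and 0.129 FPKM and at 2.07 and 1.89 FPKM. Brca2, the partner of Palb2 in strand exchange, was at 0.762, 0.648 and 0.278 FPKM and at 1.01 and 1.52 FPKM. In each of these 3 replicate 3 was far below the rest, and in Rad54b and Brca2 both knockout-labelled libraries also lay above all 3 labelled wild type. Xrcc2, Rad51c and Rad51d, of the paralog complexes that assist strand exchange, varied less, with replicate 3 at 0.829, 0.223 and 1.52 FPKM against lowest other values of 0.874, 0.221 and 1.92 FPKM. Xrcc3, which works with Rad51c, ran the other way, at 2.44, 2.15 and 3.61 FPKM in the wild type-labelled and 1.74 and 1.86 FPKM in the knockout-labelled libraries. It was the single gene of the 42 that was highest in replicate 3, and the single one whose knockout-labelled libraries both lay below every wild type-labelled one (background 7.13%). Rad52, an annealing protein, stood at 9.08, 7.75 and 4.26 FPKM against 5.99 and 5.40 FPKM, so that both knockout-labelled libraries lay between replicate 3 and the others.

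In the Brca1 complexes all 7 genes were lowest in replicate 3. Palb2, the bridge between Brca1 and Brca2, was at 0.494, 0.448 and 0.108 FPKM and at 1.40 and 0.488 FPKM, and replicate 4 lay 2-fold above every other library, the only such case among the 42 genes. The replicate 3 value rests on an estimated 12.3 fragments and that of replicate 4 on 33.1. Bard1, the obligate partner of Brca1 in its ubiquitin ligase, was at 0.433, 0.736 and 0.212 FPKM against 0.809 and 0.850 FPKM. Brip1, a helicase bound by Brca1, was at 0.883, 1.02 and 0.408 FPKM against 1.23 and 1.29 FPKM. Both genes were higher in the knockout-labelled libraries without overlap. Uimc1 and Brcc3, of the complex that carries Brca1 to ubiquitin at breaks, and Rbbp8, which starts resection, were 5.34 to 12.3 FPKM throughout, with replicate 3 between 1.06 and 1.89 times below the lowest other library.

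Among the damage signalling kinases, all 4 were lowest in replicate 3. Chek1, the effector of Atr at stalled forks, was at 3.14, 2.71 and 0.644 FPKM against 2.46 and 2.96 FPKM. Chek2, the effector of Atm at breaks, was at 6.84, 3.64 and 1.35 FPKM against 6.76 and 7.34 FPKM. The upstream kinases moved less in replicate 3, with Atm at 1.98, 1.74 and 1.24 FPKM against 2.44 and 2.92 FPKM. Atr was at 3.13, 2.43 and 1.89 FPKM against 3.62 and 3.69 FPKM. For Atm and Atr, but neither checkpoint effector, the labels did not overlap.

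The Fanconi ID pair, which is clamped on DNA at a crosslink, showed the widest ratios between labels after Polq. Fancd2 (chromosome 6, 113531682 to 113597017) measured 0.623, 0.805 and 0.181 FPKM in replicates 1, 2 and 3 and at 1.88 and 1.66 FPKM in replicates 4 and 5. Fanci (chromosome 7, 79391929 to 79450264) measured 0.272, 0.556 and 0.118 FPKM and at 0.941 and 1.28 FPKM. The mean of the knockout-labelled libraries was 3.30 and 3.51 times that of the wild type-labelled ones, and 2.48 and 2.68 times the mean of replicates 1 and 2 alone. Fanci rests on few fragments, an estimated 7.92, 33.4 and 16.7 in the first 3 libraries and 27.7 and 126 in the others. It shares 921 exon bases with Polg on the opposite strand, and Polg averaged 10.7 FPKM against 0.633 FPKM for Fanci. The methods state default alignment parameters and do not say whether counting used strand, so reads of Polg may be part of the Fanci values.

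Of the 8 core genes and partners, Fanca, Fancc, Fancf, Fancg and Fancm were higher in both knockout-labelled libraries than in all wild type-labelled ones. Fanca, a scaffold of the core complex, was at 3.53, 3.28 and 2.13 FPKM against 4.21 and 6.99 FPKM. Fancm, the translocase that anchors the core on DNA, was at 1.29, 1.26 and 0.764 FPKM against 1.63 and 1.66 FPKM. Fancg was at 2.44, 1.88 and 1.55 FPKM against 3.36 and 2.50 FPKM, a separation of less than 0.1 FPKM at its nearest pair. Fancf, an adaptor of the core, was at 0.302, 0.385 and 0.329 FPKM against 0.699 and 0.558 FPKM, on an estimated 3.20 fragments in replicate 1. Fancl, the ubiquitin ligase that modifies the ID pair, showed a different order, at 5.03, 6.73 and 1.30 FPKM against 4.61 and 3.83 FPKM. Its knockout-labelled values lay below replicates 1 and 2 and above replicate 3. Fancb and Fance overlapped between the labels.

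Genes of the alternative routes differed among themselves. Parp1, the break sensor that is the target of PARP inhibitors and the most abundant of the 42 genes (chromosome 1, 180568924 to 180601254), measured 24.2, 22.9 and 7.85 FPKM and at 24.0 and 26.1 FPKM. Replicate 3 alone was low, and the labels overlapped. Polq, which encodes DNA polymerase theta of microhomology-mediated joining (chromosome 16, 37011786 to 37095417), measured 0.260, 0.357 and 0.0442 FPKM and at 0.752 and 0.966 FPKM. Both knockout-labelled values were above all wild type-labelled ones, with a ratio of means of 3.90, or 2.79 against replicates 1 and 2 alone. The Polq values rest on an estimated 14.1, 39.8 and 11.6 fragments and on 41.0 and 177. Xrcc1, the scaffold of single-strand break repair, was at 13.9, 9.86 and 12.7 FPKM against 16.3 and 14.3 FPKM, and was lowest in replicate 2. Trp53bp1, which shields ends from resection, was likewise lowest in replicate 2, at 4.33 FPKM. Rif1, its effector, Parp2 and Lig3 were lowest in replicate 3 by no more than 1.35 times and overlapped between the labels.

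**Figure D3:**
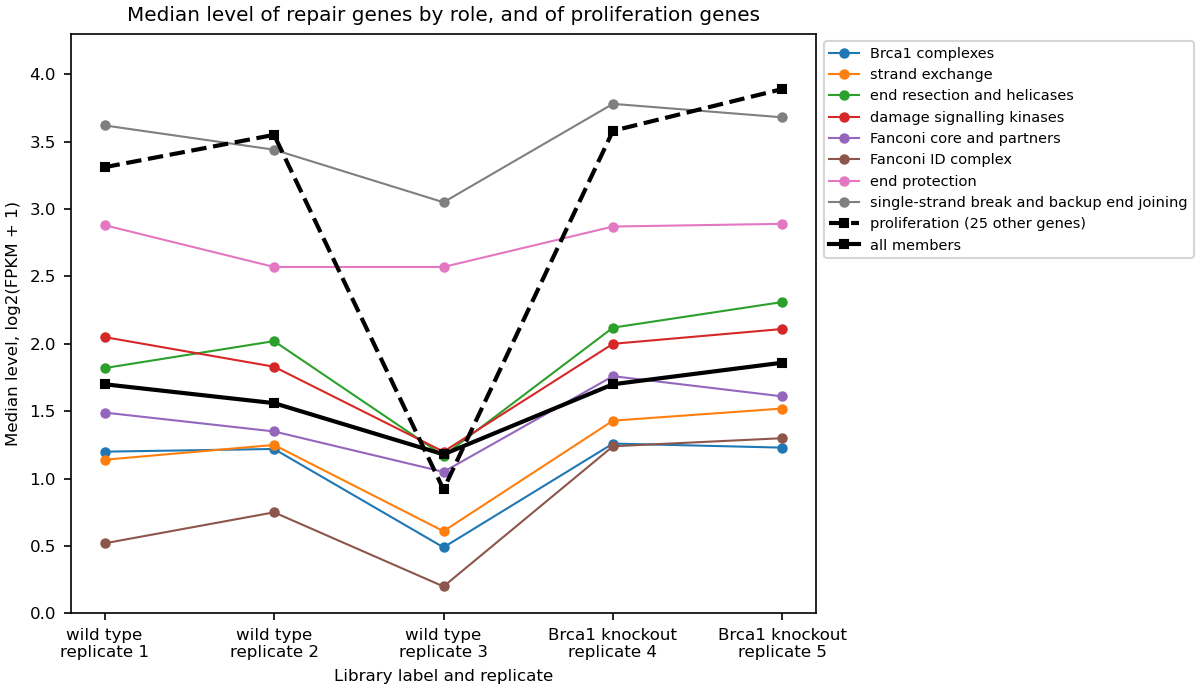
Lines give the median log2(FPKM + 1) of each role group, of all 42 genes and of 25 proliferation genes in each library, ordered by label and replicate, with no error bars because each point is 1 library. Replicate 3 is at or near the minimum of every line, and the proliferation line falls furthest, to 0.92 from 3.31 or more elsewhere.

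The second comparison was between the labels, and asks whether the repair genes differ where the label reads Brca1 knockout. Both knockout-labelled libraries lay above all 3 wild type-labelled ones for 19 of 42 genes, 45.2%, against 15.9% of the 14988 genes. Among the 31 genes at 1 FPKM or more this held for 13, against 17.5% of 11481. The 19 were Bard1, Brip1, Brca2, Xrcc2, Rad54b, Mre11a, Rad50, Blm, Atm, Atr, Fanca, Fancc, Fancf, Fancg, Fancm, Fancd2, Fanci, Xrcc1 and Polq. Their lower knockout-labelled value was between 1.02 times (Mre11a) and 2.11 times (Polq) the higher of replicates 1 and 2. The separation was narrow, at 1.05 times or less, in Mre11a, Xrcc1, Fancg and Rad50. With replicate 3 left out, 19 of 42 genes were higher in both knockout-labelled libraries than in replicates 1 and 2, against 21.8%, and 3 genes, Xrcc3, Rad52 and Fancl, were lower in both, against 16.2%. The highest value lay in a knockout-labelled library for 35 of 42 genes, 23 of them in replicate 5, where 39.0% of genes had their highest value in either.

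In the model fitted across all 11481 genes averaging 1 FPKM or more, 0% of genes were called in either direction at an adjusted p under 0.05 (limma), and none of the 31 repair genes tested was called. At an unadjusted p under 0.05, 2.33% of genes were higher and 0.915% lower in the knockout-labelled libraries, and 1 of the 31 repair genes was higher. That gene was Fancd2, with a log2 difference of 0.87, a standard error of 0.31, an unadjusted p = 0.0350 and an adjusted p = 0.92 (limma). Fancd2 averaged 1.03 FPKM, from means of 0.536 FPKM in the wild type-labelled and 1.77 FPKM in the knockout-labelled libraries. It passed the 1 FPKM filter only through the libraries where it was high, so its place in the fit is not independent of its difference. The difference was above 0 for 29 of the 31, with Xrcc3 at -0.40 and Rad52 at -0.21 as the exceptions, against 65.5% of all genes. The median difference was 0.32 for the 31 genes and 0.11 for all genes. With a pseudocount of 0.1 in place of 1 they were 0.55 and 0.13, with Fancd2 at 1.72. Without replicate 3 these medians were 0.22 and 0.03, and 26 of 32 repair genes tested were above 0. Brca1, Brcc3, Chek1 and Fancl joined Xrcc3 and Rad52 as exceptions. The 65.5% belongs to the fit of all 5 libraries, and the share of all genes above 0 without replicate 3 was not counted.

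After Fancd2 came Chek2 at 0.87 with a standard error of 0.52, Rad54b at 0.82 with 0.38, Fanca at 0.72 with 0.30 and Blm at 0.66 with 0.37. Rad54b likewise passed the filter through its knockout-labelled mean of 1.98 FPKM, with 0.758 FPKM in the wild type-labelled libraries. Parp1 stood at 0.58 with a standard error of 0.50. Replicate 3 carried much of these differences, since without it Parp1 stood at 0.09, Chek2 at 0.42, Blm at 0.38, Rad54b at 0.53 and Rad54l at 0.27 in place of 0.64. Fancd2 stood at 0.69 and Fanca at 0.55 without it. With replicate 4 or replicate 5 left out, Fancd2 averaged under 1 FPKM and was not fitted. Fanca also depended on replicate 5, its highest library, with 0.41 when that was left out and 1.02 without replicate 4. Adjusted p-values of the 31 genes ran from 0.92 to 0.98. The 11 genes with lower means entered a fit over all genes averaging 0.1 FPKM or more. There Fanci had a log2 difference of 0.69 (standard error 0.20), Polq of 0.61 (standard error 0.17) and Brca2 of 0.54 (standard error 0.22), each with an adjusted p = 0.89. An exact rank test of 3 libraries against 2 cannot give a two-sided p below 0.2, so single values were not tested in that way.

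**Figure D4:**
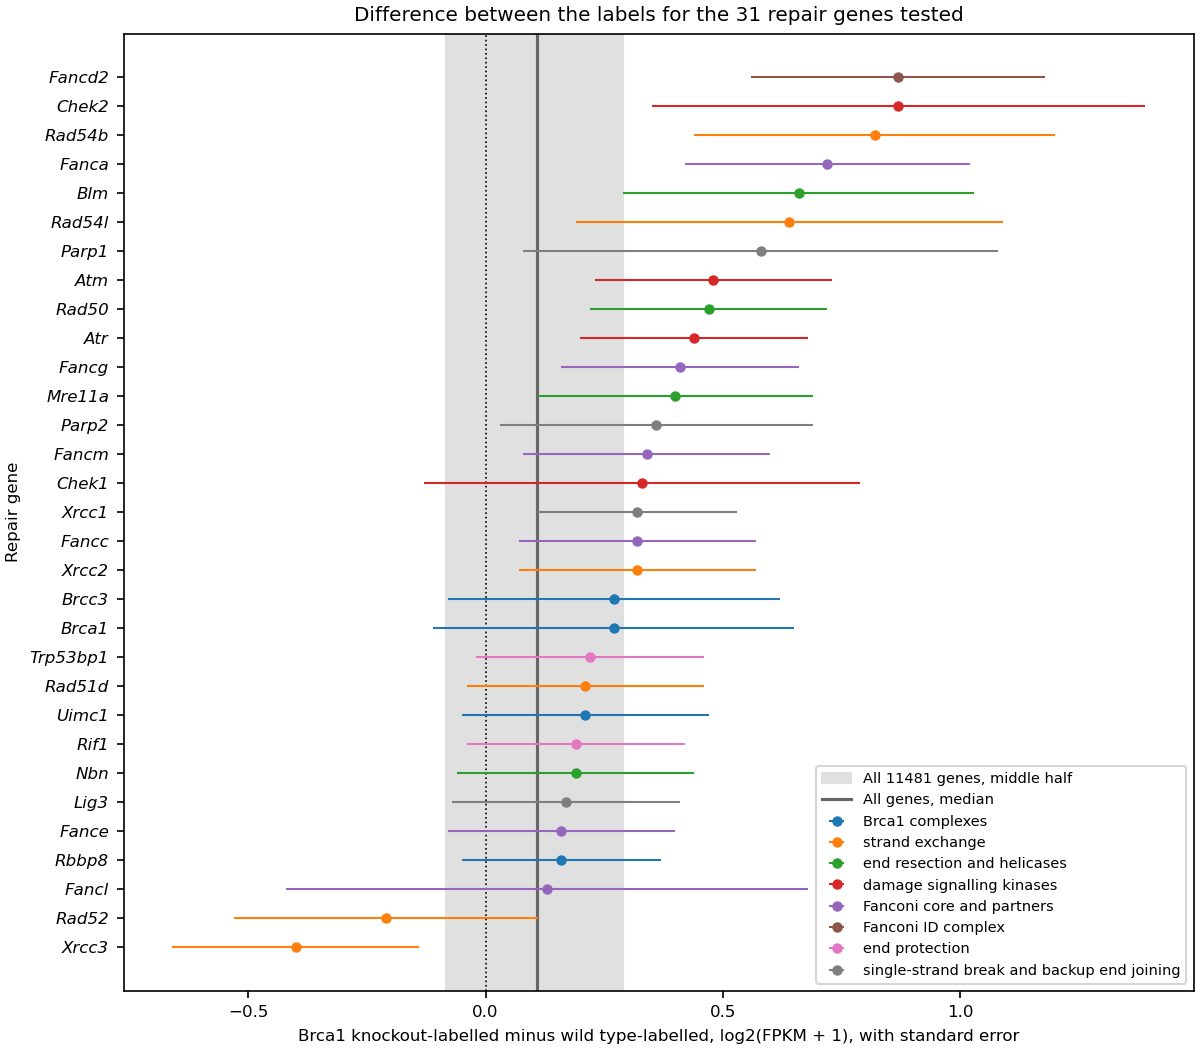
Points are the 31 repair genes tested, as the knockout-labelled minus wild type-labelled mean of log2(FPKM + 1), and bars are 1 standard error from limma. The grey line is the median of all 11481 genes, 0.11, and 29 of 31 points lie to the right of 0, while none passed the adjusted threshold.

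Other genes of these pathways were taken as whole lists, drawn up with earlier results of these data known. Of the 14988 genes averaging 0.1 FPKM or more, 44.6% were lowest in replicate 3 and 7.77% at least 2-fold below there. In 15.9% both knockout-labelled libraries were higher. Of the 11481 genes tested, 65.5% had a difference above 0, with a median of 0.11. Of 39 further recombination and Fanconi genes found, 28 were lowest in replicate 3, 8 of them at least 2-fold, and 10 were higher in both knockout-labelled libraries. Of the 36 tested, 29 had a difference above 0, with a median of 0.17, and 0 were called. Of 21 further damage signalling genes, 16 were lowest in replicate 3, 8 of them at least 2-fold, and 5 were higher in both knockout-labelled libraries, while 18 of 20 tested had a difference above 0 with a median of 0.36. Of 10 genes of classical end joining, which needs no sister chromatid, 7 were lowest in replicate 3, 1 of them at least 2-fold, and 4 were higher in both knockout-labelled libraries. Of its 9 genes tested, 7 had a difference above 0, with a median of 0.35. That median stood beside 0.32 for the 31 repair genes tested. At the 2-fold level classical end joining gave 1 of 10, the 42 genes 18 and the 39 further recombination and Fanconi genes 8. Of the 31 repair genes averaging 1 FPKM or more, 9 were at that level. The differences between these shares were not tested. Without replicate 3 the medians of the 3 lists were 0.09, 0.14 and 0.15, against 0.03 for all genes. None of the genes of these lists was called by limma at an adjusted p under 0.05.

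Among these further genes, H2afx and Clspn had some of the largest differences. H2afx, the histone variant phosphorylated at breaks, was at 28.9, 20.5 and 8.49 FPKM against 40.1 and 54.7 FPKM, a log2 difference of 1.39 with a standard error of 0.51. Clspn, the adaptor for Chek1, was at 1.82, 1.71 and 0.180 FPKM against 2.89 and 3.15 FPKM. In both genes the labels did not overlap and replicate 3 was at least 2-fold below the rest.

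Proliferation genes moved with these results. Of 25 such genes, 24 were lowest in replicate 3 (background 44.6%) and 22 at least 2-fold below every other library (background 7.77%). They summed to 93.5 FPKM there against 283 to 461 FPKM elsewhere. Their median was 3.31, 3.55 and 0.92 in log2(FPKM + 1) in replicates 1, 2 and 3, and 3.58 and 3.89 in replicates 4 and 5. Of the 25, 14 were higher in both knockout-labelled libraries than in all wild type-labelled ones (background 15.9%). Mki67 was among them, at 9.66, 10.7 and 0.504 FPKM against 18.3 and 27.2 FPKM. All 23 tested had a difference above 0 (65.5% of all genes), with a median of 1.22 (0.11 for all genes), and 0 were called. Without replicate 3 the median was 0.50 (0.03 for all genes), and 23 of 24 genes tested were above 0. The share of all genes above 0 was not counted in that fit. The part of proliferation, of mature luminal cells and of the immune and fibroblast RNA in the repair gene levels was not tested. That of reproductive stage could not be tested, because the stage is not given by library.

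By role, the median of the strand exchange genes was 1.14, 1.25 and 0.61 in log2(FPKM + 1) in replicates 1, 2 and 3 and 1.43 and 1.52 in replicates 4 and 5. For the resection and helicase genes it was 1.82, 2.02 and 1.17 against 2.12 and 2.31, and for the ID pair 0.52, 0.75 and 0.20 against 1.24 and 1.30. The Brca1 complexes, at 1.20, 1.22 and 0.49 against 1.26 and 1.23, had their knockout-labelled medians close to replicates 1 and 2. The 2 end protection genes, Trp53bp1 and Rif1, stood at 2.88, 2.57 and 2.57 against 2.87 and 2.89, the smallest range of any role. Of the promoters shown, 3 of the 5 genes with a match were at least 2-fold lower in replicate 3 as were 15 of all 33 genes with a promoter.

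Some levels carry reads that could belong to a neighbour. In GENCODE M21, 20 of the 42 genes share exon bases with another gene. Besides Fanci, Rad54l shares 1184 bases with Lrrc41, Trp53bp1 2130 with Tubgcp4, Lig3 1826 with Rffl and Fanca 920 with Zfp276, each on the opposite strand. Rad54b shares 2068 bases with Fsbp on the same strand. Without strand information the reads of such pairs cannot be told apart, and the values of these genes are uncertain to that extent.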

How the data were processed

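Total RNA of 5 sorted luminal libraries was prepared with a NEBNext Ultra kit and sequenced in pairs. Per the labels, the deposited FPKM were made by the authors with Trimmomatic 0.35, TopHat2 2.0.13 and Cufflinks 2.2.1 on mm10. The methods text names another TopHat release, and the annotation is not given in the sources used here. The extraction text of the labels speaks of frozen tumours, while the methods describe sorted cells. FPKM scale each library by its own total, so that a few very abundant transcripts can lower all others.

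Of 24346 rows, 27 (25 names) whose gene name had become a date were left out. Values were used as deposited, as log2(FPKM + 1), which understates changes of low genes. Labels were compared with limma 3.58.1 with a variance trend (R 4.3.3) on genes averaging 1 FPKM or more, with Benjamini-Hochberg adjustment and a threshold of 0.05. The procedure was run on simulated data whose noise was independent between genes and libraries. No simulated library stood apart over many genes, so that run does not cover a library such as replicate 3. Depth was estimated from 873 genes with 1 transcript longer than 3000 bases, and only 53.1% to 58.4% of low values lay within 0.15 of a whole multiple (30% by chance), so no count model was run. Fragment numbers are estimates for the longest GENCODE M21 transcript.

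The genes named are all 42 members by role, the 3 with the largest absolute difference among the further repair genes (1 is not reported here), and markers or list genes given as examples, which were chosen after their values were seen. Members and lists (further recombination and Fanconi, further damage signalling, classical end joining, proliferation, and the luminal, luminal progenitor, mature luminal, milk, basal, fibroblast, immune, endothelial and adipocyte markers) were chosen with earlier results of these data known. Alternatives were another pseudocount, other filters and scalings, no variance trend, and each library left out. Coordinates are those of GENCODE M21 (GRCm38, mm10). Other steps ran in Python 3.11.15 with scipy 1.17.1, pandas 2.3.3 and numpy 2.4.6.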

Additional observations from a re-analysis of the deposited data

Results flagged for a closer look

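With the 5 libraries taken as one group, 5 of the 42 genes had 1 library whose gap to its nearest neighbour was large against the whole range (Dixon's test at 95%, which flags about 5% of groups by chance). In all 5 it was replicate 3, on the low side. Brca1 stood at 0.234 FPKM there, Chek1 at 0.644 FPKM, Dna2 at 0.188 FPKM, Parp1 at 7.85 FPKM and Brcc3, the deubiquitinase of the Brca1-A complex, at 5.66 FPKM. The rule was applied to log2(FPKM + 1), where the gap was between 0.806 of the range for Chek1 and 0.902 for Brca1. Over the 14988 genes averaging 0.1 FPKM or more, 13.3% were flagged in some library and 5.82% as low in replicate 3. Exo1 and Rad54b, which had the widest ratios to the lowest other library, did not meet this rule on that scale, which understates changes of low genes.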

How the results depend on the processing

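No paired analysis was possible because the labels share no replicate number, running 1 to 3 in one group and 4 to 5 in the other. None of the repair genes was called by limma under any of the 11 alternatives, and the lowest adjusted p of a member was 0.624. Other filters and the fit without a variance trend cannot change the difference of a member, so those settings agree by design. Fancd2 had no value without replicate 4 or replicate 5, and Xrcc2 none without replicate 4, because their means fell under 1 FPKM. Of 338 alternative values of single members, counted with those settings, 334 kept their direction. The 4 that reversed did so without replicate 3, and over single libraries left out the differences ran from -0.03 to 0.43 for Brca1, -0.05 to 0.45 for Brcc3, -0.08 to 0.58 for Chek1 and -0.39 to 0.48 for Fancl. Without replicate 3 the difference was above 0 for 26 of 32 members, a share that was not counted over all genes. Leaving out 1 library gave between 0 and 14 genes called over the whole table, with 14 without replicate 4, 4 without replicate 5 and 2 without replicate 1. In the first 2 of these fits a lone knockout-labelled library is assumed to vary like the others. It gave between 19 and 30 members higher and between 1 and 3 lower in the knockout-labelled libraries, 30 without replicate 4 (27.1% of the 14988 genes were higher in that setting) and 3 without replicate 3 (16.2% lower). The median level was 1.60 and became 1.08 with a pseudocount of 0.1, which also moved the median difference of the members from 0.32 to 0.55, Fancd2 from 0.87 to 1.72 and Rad54b from 0.82 to 1.62. Median-of-ratios scaling moved the median difference of all genes from 0.11 to 0.01 and that of the members from 0.32 to 0.26, and the unadjusted split of all genes from 267 higher and 105 lower to 228 and 165 (206 and 138 with quantile scaling). With median-of-ratios scaling 17 members were higher without overlap (11.6% of the 14988 genes), 31 were lowest in replicate 3 (30.5%) and 13 at least 2-fold (5.17%). The relative depth of replicate 2 was 2.06 and became 4.15 with transcripts longer than 2000 bases. With 1 strand in place of both, 3 of 33 members, 9.09%, had an E2F match, against 1.10% of all genes and 2.30% of those averaging 1 FPKM or more.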
